A study of Mus musculus with 4 samples.

Results

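Gamma delta T cells were picked out of single-cell RNA sequencing of whole mouse lung as 97 of 28168 kept cells. A kept cell had at least 250 genes, at most 15% of its unique molecular identifiers (UMIs, counted RNA molecules) from mitochondrial genes and under 50% from haemoglobin genes, and 34755 barcodes had been deposited. A gamma delta T cell had at least 2 UMIs of Cd3e, Cd3d and Cd3g together, which encode the CD3 chains of every T cell receptor, and at least 1 UMI of Trdc, the constant part of the delta chain. It had no UMI of Cd4, Cd8a or Cd8b1 (other T cells), Cd79a or Ms4a1 (B cells), Csf3r or Cxcr2 (neutrophils), Ncr1 (natural killer cells) or Foxp3 (regulatory T cells). The rule found 33 and 24 cells in the tamoxifen mice and 23 and 17 in the placebo mice. The cells were thus chosen by the measured values of these genes, which are not results.

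The 4 lungs came from female FVB/NJ mice with the MMTV-PyMT transgene, in which a mammary tumour virus promoter drives polyoma middle T antigen in the mammary gland. The 2 tamoxifen mice were implanted at 8 weeks of age with a pellet of 5 mg tamoxifen, a ligand of the oestrogen receptors, with release over 60 days. The 2 placebo mice got a placebo pellet at the same age, which the sample labels call a vehicle control. All mice carried the transgene and were killed at 13 weeks of age, 5 weeks after implantation, so no group was without the tumour transgene. Lungs were perfused with saline, digested with enzymes and not sorted, and each mouse gave 1 library read from the 5′ end of the transcripts. The mouse is the replicate, and which cells lay in metastases is not given in the labels.

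Gamma delta T cells carry a receptor of a gamma and a delta chain in place of the alpha and beta chains of CD4 and CD8 T cells. Each chain is assembled from variable, joining and, for delta, diversity segments in front of a constant gene. In mice, cells with the Vγ6 and Vδ1 segments arise before birth with a nearly invariant receptor, settle in lung and other barrier tissues and are known for rapid release of interleukin-17. Other gamma delta T cells, many with Vγ1, are known for interferon-γ and cytotoxic genes.

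The segments on which the description turns are Tcrg-V6, which encodes Vγ6 on chromosome 13, and Trdv4, which encodes Vδ1 on chromosome 14. Trgv2 and Tcrg-V1 are printed because their likeness limits how their counts can be read. The sequences are the last 150 coding bases of each segment in GENCODE M21 on GRCm38 (mm10), 5′ to 3′ on the coding strand. In the first pair, capitals mark the germline start of the third hypervariable loop, from the last cysteine codon that follows a tyrosine codon to the segment's end. Tcrg-V6 lies at chr13:19190780-19190929 (plus strand) and Trdv4 at chr14:54075366-54075515 (plus strand).
Tcrg-V6: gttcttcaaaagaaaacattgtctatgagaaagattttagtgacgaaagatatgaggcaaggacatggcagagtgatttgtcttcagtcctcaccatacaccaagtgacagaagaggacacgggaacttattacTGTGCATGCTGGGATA
Trdv4: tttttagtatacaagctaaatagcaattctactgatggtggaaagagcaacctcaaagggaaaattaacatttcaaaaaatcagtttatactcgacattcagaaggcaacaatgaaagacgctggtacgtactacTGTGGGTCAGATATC
In the second pair, capitals mark the positions at which the segments differ from each other. Trgv2 lies at chr13:19336573-19336722 (minus strand) and Tcrg-V1 at chr13:19340305-19340454 (plus strand).
Trgv2: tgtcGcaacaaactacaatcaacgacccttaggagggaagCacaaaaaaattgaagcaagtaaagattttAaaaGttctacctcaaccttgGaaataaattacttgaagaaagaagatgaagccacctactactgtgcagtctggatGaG
Tcrg-V1: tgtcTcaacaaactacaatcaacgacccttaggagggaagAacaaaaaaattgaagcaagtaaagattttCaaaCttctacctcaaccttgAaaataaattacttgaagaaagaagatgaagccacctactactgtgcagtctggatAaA
These stretches share 143 of 150 bases, and Tcrg-V1 shares 145 of 150 with Tcrg-V3, so counts of the 3 segments may be split and were summed where cells are grouped. Tcrg-V6 shares 48 of 150 bases with Tcrg-V1 and 44 of 150 with Tcrg-V5 at the same positions.

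Before the results, the label was checked. A UMI of any gamma chain gene or delta variable segment, which the rule did not use, was found in 90 of the 97 cells. Trac, the constant part of the alpha chain, had 10 UMIs in 9 cells. Transcripts of the beta chain's constant genes were common, with Trbc2 in 69 cells and Trbc1 in 26, so that 73 of 97 cells had a UMI of Trac, Trbc1 or Trbc2. Beta chain constant RNA is known from gamma delta T cells without a functional beta chain. Without these 73 cells, 9 and 7 cells were left in the tamoxifen mice and 7 and 1 in the placebo mice. In the comparisons below with CD8, CD4 and natural killer cells, all calls then fell from 731 to 269, 692 to 255 and 497 to 102. Of the called genes that are named or on a gene list, 45, 57 and 41 kept their call. Another 18, 13 and 16 lost it, and the rest, apart from Trbc2, no longer passed the count filter. No UMI of Trdc was found in 1671 B cells (at least 1 UMI each of Cd79a and Ms4a1, none of Cd3), which allows a share of up to 0.180%, at a median of 3231 UMIs per B cell and 4090 per gamma delta T cell. In 190 natural killer cells (Ncr1 without Cd3, Cd4 or Cd8), 32 had a Trdc UMI, or 16.8% (95% exact interval 11.8 to 22.9%).

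Of the 97 cells, 46 had exactly 1 UMI of Trdc, 51 had 2 or more and the highest had 5. Just outside the rule stood 3 cells with 1 UMI of Cd3 and 76 with none that met every other condition, and 9 CD8 T cells with a Trdc UMI. The libraries held 32646505 to 37285982 UMIs, and the 97 cells together 469345, from 863 to 22721 per cell. Pairs of libraries shared 77 to 128 barcodes, 5 of the 97 cells had a barcode also seen in another library, and no barcode was that of 2 gamma delta T cells. The labels number the mice 1 and 2 in each group but name no pairs. Intervals on shares of cells cover counting error only.

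Vγ6 and Vδ1 transcripts were found together in 47 of the 97 cells. Tcrg-V6 was found in 49 of 97 cells with 281 UMIs, in 17 of 33 and 10 of 24 cells of the tamoxifen mice and in 11 of 23 and 11 of 17 cells of the placebo mice. Trdv4 was found in 53 cells with 617 UMIs, in 18 and 10 cells of the tamoxifen mice and 13 and 12 of the placebo mice. Besides the 47 cells with both, 2 cells had Tcrg-V6 without Trdv4 and 6 had Trdv4 without Tcrg-V6. The pair was thus seen in every mouse. Outside the gamma delta T cells, Tcrg-V6 had no UMI in 720 CD8 T cells and 190 natural killer cells, and 1 in 878 CD4 T cells.

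Trgv2 was found in 50 cells and Tcrg-V1 in 23, subject to the splitting described above, Tcrg-V4 (Vγ4) in 16, Tcrg-V5 in 13, and Tcrg-V3 and Tcrg-V7 in 2 each. Of the delta segments, Trdv5 was in 8 cells, Trdv2-2 in 5 and Trdv1 in 1, and Trdv2-1 and Trdv3 had no UMI in 97 cells. Several gamma segments often appeared together, with Trgv2 in 20 of the 49 cells with Tcrg-V6 and Tcrg-V5 in 7 of them. Among the gamma constant genes, Tcrg-C1 was found in 55 cells, Tcrg-C4 in 39 and Tcrg-C2 in 26, and Tcrg-C3 had no UMI.

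A cell's leading gamma variable segment was taken as the one with the most UMIs, with Tcrg-V1, Trgv2 and Tcrg-V3 summed. Tcrg-V6 led in 43 cells, of which 14 and 9 came from the tamoxifen mice and 9 and 11 from the placebo mice. All 43 also had Trdv4. Tcrg-V1, Trgv2 or Tcrg-V3 led in 30 cells, 10 and 11 from the tamoxifen mice and 5 and 4 from the placebo mice, and 4 of them had Trdv4. Tcrg-V5 led in 5 cells, Tcrg-V4 in 3 and Tcrg-V7 in none, 4 cells were tied and 12 had no gamma variable UMI.

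The cells were further split by the type 17 programme, the genes for interleukin-17 and its control. A type 17 cell had at least 2 UMIs over a list of 10 genes, among them Il17a and Il17f, the regulator Sox13, the receptors Il23r, Il1r1 and Ccr6, the scavenger receptor-like Cd163l1 and 5830411N06Rik, and the kinase gene Blk. This held for 67 of 97 cells, 6 cells had exactly 1 such UMI, 24 had none, 3 had exactly 2, and 50 cells had UMIs of 3 or more of the genes. Cd163l1 was found in 54 cells, Blk in 44, Il23r in 36, Il1r1 in 31 and Sox13 in 24. The cytokine genes themselves were sparse, with Il17a in 5 cells and Il17f in 2, and 16 of the 22 Il17a UMIs lay in 1 cell of the first placebo mouse.

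The split followed the receptor. All 43 cells led by Tcrg-V6 were type 17 cells, with a median of 14 type 17 UMIs and a range of 4 to 33, at a median depth of 4274 UMIs. Of the 30 cells led by Tcrg-V1, Trgv2 or Tcrg-V3, 12 were type 17 cells and the median was 0.5 type 17 UMIs, at a similar median depth of 3984.5 UMIs. Tcrg-V6 or Trdv4 was found in 53 of 67 type 17 cells and in 2 of the 30 other cells. These counts describe cells that share libraries and were not tested across cells.

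**Figure D1:**
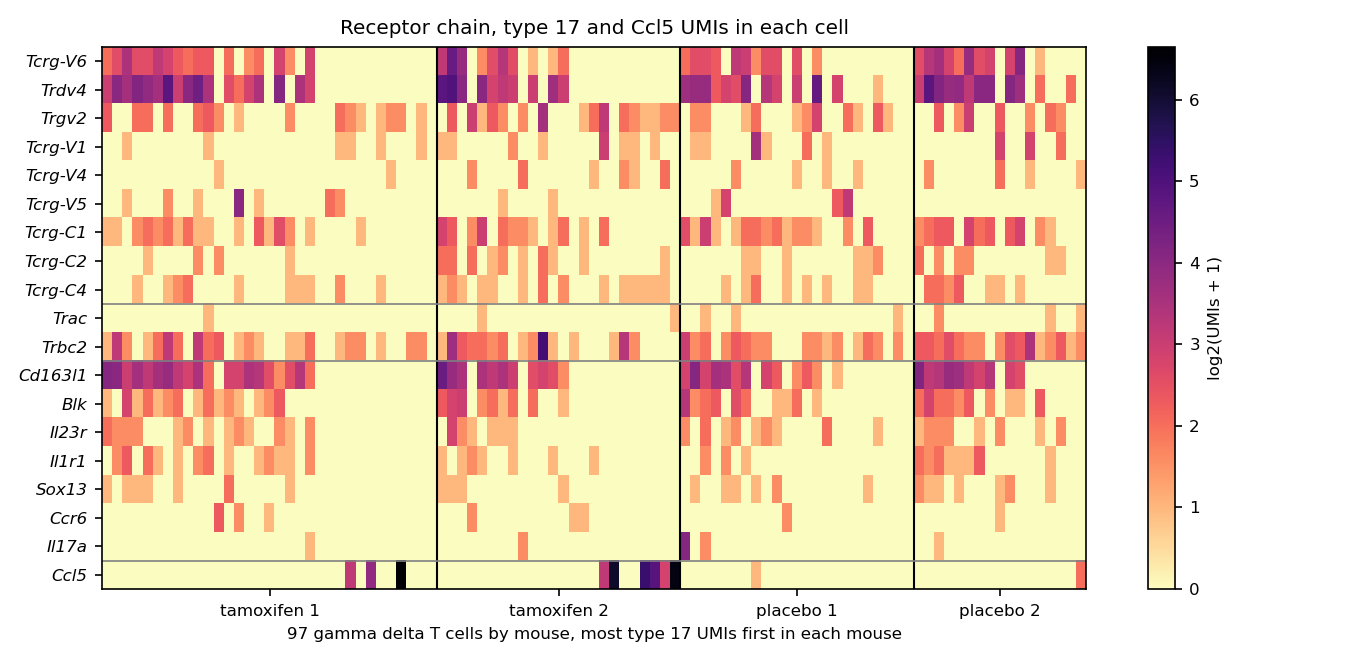
UMIs per cell, as log2(UMIs + 1) in colour, of receptor chain genes (top), alpha and beta constant genes, type 17 genes and Ccl5 (bottom) in the 97 gamma delta T cells, with 33 and 24 cells of the tamoxifen mice left of 23 and 17 of the placebo mice and cells ordered by type 17 UMIs. Tcrg-V6 and Trdv4 stand in the same cells as Cd163l1 and Blk in each mouse, and Ccl5 stands in 11 cells, 10 of them without the type 17 programme.

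**Figure D2:**
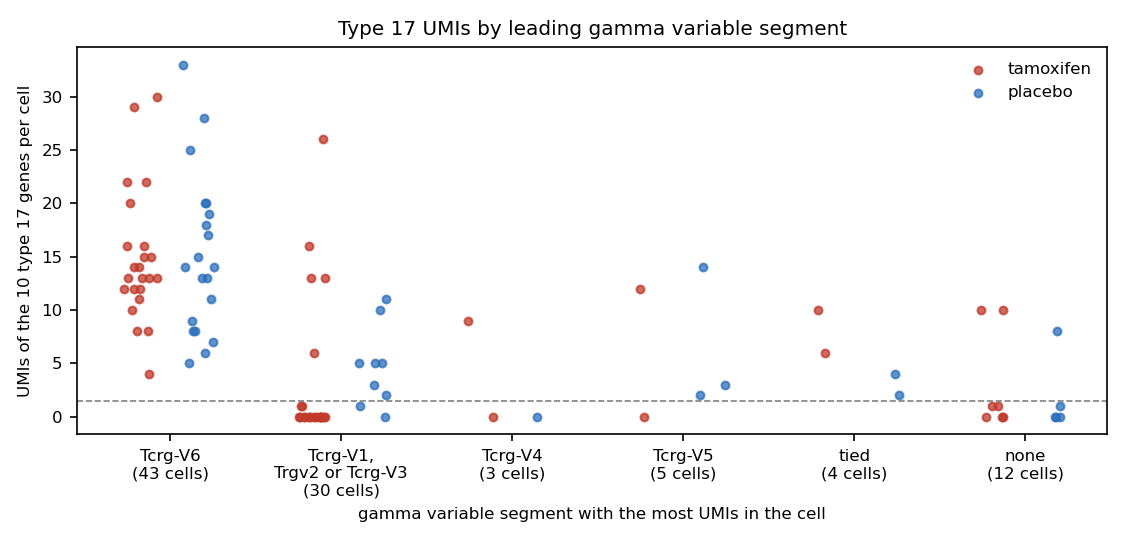
UMIs summed over the 10 type 17 genes in each gamma delta T cell, by the gamma variable segment with the most UMIs in that cell, with tamoxifen cells left of placebo cells. The 43 cells led by Tcrg-V6 have 4 to 33 such UMIs, and the dashed line separates the cells with 2 or more, called type 17, from the rest.

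The type 17 cells were compared with the other gamma delta T cells of the same mice, 21, 13, 18 and 15 cells against 12, 11, 5 and 2 (tamoxifen mice, then placebo mice). UMIs were summed per mouse and subset and tested with edgeR's quasi-likelihood F test with the mouse as a block and Benjamini-Hochberg adjustment over all genes tested. Levels are given as CPM, a gene's UMIs per 1000000 UMIs of the cells summed, and fold changes come from the fit with TMM scaling, here and in every comparison. Of 791 genes tested, 23 (2.91%) were higher and 4 (0.506%) lower in type 17 cells at an adjusted p under 0.05, 27 (3.41%) in all, and 122 had an unadjusted p under 0.05. Genes of the type 17 list chose the subset and are not counted as results, although Cd163l1 and Blk are among the 23. In sums over cells, fewer cells with a gene and less RNA of it per cell cannot be told apart.

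The receptor segments differed most. Tcrg-V6 had 791 and 1031 CPM in the tamoxifen mice and 535 and 822 CPM in the placebo mice in type 17 cells, against 0 in all 4 mice in the other cells. That is at least 27.9-fold higher, set against 3 UMIs over the other cells. Tcrg-V6 passed the count filter only through the type 17 cells, which fixed its direction, so this is a description. Trdv4 had 2113 and 1973 CPM in the tamoxifen mice and 1270.0 and 1491 CPM in the placebo mice in type 17 cells. In the other cells it had 0 and 0 CPM in the tamoxifen mice and 61.6 and 263 CPM in the placebo mice. The log2 fold change was 5.42 ± 0.59 (SE). With 4 UMIs in the other cells, Trdv4 passed the filter largely through the type 17 cells and is a description too. The subsets did not overlap for either gene. Tcrg-C1, the constant gene that Vγ6 joins, was also higher in type 17 cells (log2 fold change 2.16 ± 0.52 (SE)). With 9 UMIs in the other cells, Tcrg-C1 passed the filter only through the type 17 cells, so this is a description as well.

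Pdcd1 encodes the inhibitory receptor PD-1. In type 17 cells it had 1152 and 824 CPM in the tamoxifen mice and 504 and 416 CPM in the placebo mice. In the other cells it had 0 and 211 CPM in the tamoxifen mice and 61.6 and 176 CPM in the placebo mice. It was thus higher in type 17 cells of all 4 mice (log2 fold change 2.77 ± 0.56 (SE)). With 13 UMIs in the other cells, Pdcd1 passed the count filter only through the type 17 cells, which fixed its direction, so this is a description. A UMI of Pdcd1 was found in 39 of the 43 cells led by Tcrg-V6 and in 6 of the 30 led by Tcrg-V1, Trgv2 or Tcrg-V3. Of 21 further genes known from interleukin-17-producing cells, 16 were tested, and 5 were higher and none lower in type 17 cells. The 5 were Serpinb1a (3.13 ± 0.52 log2), a protease inhibitor, Ckb, Capg, Tmem176b and Cxcr6, a chemokine receptor of tissue-resident T cells. Serpinb1a, Ckb and Capg, with 4, 8 and 16 UMIs in the other cells, passed the count filter only through the type 17 cells, which fixed their direction. The median over the 16 was 1.45 log2, beside 0.05 over all 791 genes. The actin- and calcium-binding genes Crip1 (1.78 ± 0.21 log2, adjusted p = 7.31e-05) and S100a6 (1.96 ± 0.28 log2, adjusted p = 7.39e-04) were higher too (edgeR).

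The 4 genes lower in type 17 cells were Lck, Skap1, Prkch and AW112010, the first 3 of them parts of T cell receptor signalling. Signalling genes did not move one way. Of 6 on that list tested, Lck was lower and Cd247, which encodes the receptor's zeta chain, was higher (2.09 ± 0.50 log2). Zap70 stood at 2.00 ± 0.60 log2 without a call (adjusted p = 0.0882, edgeR). Cd247 and Zap70 had 13 and 9 UMIs in the other cells and passed the count filter only through the type 17 cells. Their directions were thus fixed, and this is a description. Lck is the kinase that starts receptor signalling in most T cells. In type 17 cells it had 20.03 and 191 CPM in the tamoxifen mice and 94.5 and 71.00 CPM in the placebo mice. In the other cells it had 488 and 444 CPM in the tamoxifen mice and 739.7 and 263 CPM in the placebo mice (log2 fold change -2.43 ± 0.47 (SE)). Lck and Prkch passed the count filter only through the other cells, which fixed their direction, so their values are a description. The subsets did not overlap for Lck. Blk, a kinase of the same Src family, had UMIs in type 17 cells only, as it helped choose them. The second placebo mouse had only 2 other cells. Leaving it out left 11 calls, as did leaving out the second tamoxifen mouse, and leaving out the first placebo mouse left 12. Crip1 and S100a6 were among them each time, as were Tcrg-V6, Trdv4 and Serpinb1a, which passed the filter through type 17 cells. Called in none of these 3 fits were Pdcd1, at 2.72 to 3.71 log2, Tcrg-C1, at 1.92 to 2.85 log2, Ckb, at 2.20 to 2.77 log2, Cxcr6, at 1.24 to 1.94 log2, Cd247, at 1.34 to 2.30 log2, Skap1, at -1.36 to -1.53 log2, and Prkch, at -2.72 to -3.83 log2. Lck was not called without either placebo mouse, at -2.26 to -2.57 log2, and AW112010 was called in none of the 3.

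Markers of other cell types were unevenly spread over the subsets. Endothelial genes summed to 60.1 and 133 CPM in the tamoxifen mice and 2078 and 1795 CPM in the placebo mice in type 17 cells, against 122 and 21.1 CPM in the tamoxifen mice and 61.6 and 87.8 CPM in the placebo mice in the other cells. Without cells that had 20 or more UMIs of one marker list of another cell type, an alternative chosen after seeing the data, 38 (5.67%) of 670 genes were higher and 13 (1.94%) lower in type 17 cells, 51 (7.61%) in all. Cst3, an inhibitor of proteases that is strong in macrophages, was no longer called there, at 1.19 log2 against 2.70 with all cells.

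Gamma delta T cells were next set beside 3 kinds of lymphocyte gated from the same mice by single genes. CD8 T cells (720) had Cd3 and Cd8 without Cd4 or Trdc, CD4 T cells (878) had Cd3 and Cd4 without Cd8, Trdc or Foxp3, and natural killer cells are those named above. The genes of the gates are not results, and Trdv4, which is spliced to Trdc in 1 transcript, is given without a test. Several genes were so low in one kind of cell that they passed the count filter only or largely through the other. This fixed their direction, so they are described without a p-value. Against CD8 T cells, 367 (9.27%) of 3958 genes tested were higher and 364 (9.2%) lower in gamma delta T cells. Against CD4 T cells, 341 (7.41%) of 4599 were higher and 351 (7.63%) lower, and against natural killer cells 275 (13.2%) of 2089 were higher and 222 (10.6%) lower (edgeR, mouse as a block). Tests between these cells share the gamma delta T cells, so their calls are not independent of each other.

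The receptor genes set gamma delta T cells apart. Tcrg-C1 had 249 and 304 CPM in the tamoxifen mice and 341 and 355 CPM in the placebo mice in gamma delta T cells, against 0 to 2.33 CPM in CD8 T cells, 0.923 to 17.9 CPM in CD4 T cells and 0 to 4.53 CPM in natural killer cells. Against CD4 T cells the difference was 5.48 ± 0.45 log2, where Tcrg-C1 passed the count filter only through the gamma delta T cells. CD8 T cells held 1 UMI of it against 145 in gamma delta T cells, a ratio of 872 times (95% counting interval 154 to 34671). Trdv4 had 1094 to 1591 CPM in gamma delta T cells, and its only UMIs in the others were 1 in CD4 T cells and 4 in natural killer cells. Trac had 7.54 and 17.4 CPM in the tamoxifen mice and 26.9 and 36.4 CPM in the placebo mice in gamma delta T cells. It had 151 to 189 CPM in CD8 and 162 to 183 CPM in CD4 T cells. The log2 fold change from CD8 T cells was -3.21 ± 0.33 (SE), where Trac passed the filter largely through the CD8 T cells. Trbv29 and Trbv1, beta chain variable segments, were among the genes furthest below CD8 T cells, Trbv29 with no UMI in gamma delta T cells and at least 21.01-fold lower than the 92.1 to 167 CPM in CD8 T cells.

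Trbc2 stood against this pattern. It had 452 and 694 CPM in the tamoxifen mice and 359 and 491 CPM in the placebo mice in gamma delta T cells, against 223 to 308 CPM in CD8 T cells and 225 to 273 CPM in CD4 T cells. Every gamma delta value was above every CD8 and CD4 value, and the difference was 0.64 ± 0.17 log2 from CD8 T cells (adjusted p = 0.0208) and 0.85 ± 0.20 log2 from CD4 T cells (adjusted p = 0.0164, edgeR). It was no longer called against either with equal numbers of cells per mouse or without the second tamoxifen mouse, nor against CD8 T cells without the second placebo mouse or against CD4 T cells without the first tamoxifen mouse, at 0.52 to 0.98 log2.

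The type 17 genes were higher in gamma delta T cells throughout. Of the 10, 6 were tested against CD8, 7 against CD4 T cells and 4 against natural killer cells, and all of these were higher. They had few UMIs elsewhere and passed the count filter largely through the gamma delta T cells, so this count and the values that follow are a description. Il23r, the receptor for interleukin-23, had 166 and 104 CPM in the tamoxifen mice and 143 and 118 CPM in the placebo mice in gamma delta T cells, against 0 to 6.98 CPM in CD8 T cells and no UMI in CD4 T cells or natural killer cells, at least 146-fold and 27.5-fold higher. Cd163l1 had 735 to 1229 CPM and no UMI in these either. Il17a had 22 UMIs in 97 gamma delta T cells, 37 in 878 CD4 T cells and none in CD8 T cells or natural killer cells, and was not tested.

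Of the 21 further type 17 genes, 19 were tested against CD8 and CD4 T cells and all 19 were higher in both comparisons, with a median of 3.46 and 2.99 log2 beside 0.00 and 0.01 over all genes tested. Against natural killer cells 16 of 17 tested were higher. Several of them, such as Kcnk1 and Il17re, passed the filter through the gamma delta T cells, which fixed their direction, so these counts and medians are descriptions. Maf is a factor of interleukin-17-producing cells. It had 332 and 321 CPM in the tamoxifen mice and 224 and 255 CPM in the placebo mice in gamma delta T cells. In CD8 T cells Maf had 6.98 to 16.5 CPM (log2 fold change 4.47 ± 0.25 (SE)), and it too passed the filter only through the gamma delta T cells. Cxcr6 had 897 to 1076 CPM in gamma delta T cells, against 51.2 to 109 CPM in CD8 and 34.2 to 98.7 CPM in CD4 T cells. Kcnk1, a potassium channel gene, had 66 UMIs in gamma delta T cells, all in type 17 cells, against 3 in CD8 T cells and none in CD4 T cells.

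Among innate-like factors, Zbtb16 encodes PLZF, the factor of innate-like T cells. It had 151 and 156 CPM in the tamoxifen mice and 188 and 173 CPM in the placebo mice in gamma delta T cells. It had 6.08 to 8.01 CPM in CD8 T cells (log2 fold change 4.34 ± 0.29 (SE)) and 2.77 to 32.3 CPM in CD4 T cells. Natural killer cells had 27.2 to 52.3 CPM of it (log2 fold change 2.36 ± 0.29 (SE)). Of 13 innate-like factors, 10 were tested against CD8 T cells. Zbtb16, Id2, Maf and Ikzf2 were higher and none lower, beside 9.27% of all genes higher and 9.2% lower. Against CD4 T cells 11 were tested. Those 4 and Runx3 were higher and Egr1 and Ets1 lower, beside 7.41% of all genes higher and 7.63% lower. Since Zbtb16, and Maf against CD8 T cells, passed the count filter only through the gamma delta T cells, these counts are descriptions. Pdcd1 had 867 and 573 CPM in the tamoxifen mice and 439 and 391 CPM in the placebo mice in gamma delta T cells. It had 0 to 18.3 CPM in CD8 T cells (6.35 ± 0.44 log2), 10.2 to 27.2 CPM in CD4 T cells (4.91 ± 0.31 log2) and no UMI in natural killer cells. Zbtb16 and Pdcd1 passed the count filter only through the gamma delta T cells, so their values are a description. The levels did not overlap in any of the 3 comparisons.

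Genes of naive and circulating T cells were low. Of 10 such genes, all tested, 9 were lower than in CD8 T cells and none higher, and 8 were lower than in CD4 T cells, with medians of -2.65 and -2.40 log2. Ccr7, the receptor that brings T cells into lymph nodes, had 106 and 191 CPM in the tamoxifen mice and 26.9 and 54.6 CPM in the placebo mice in gamma delta T cells, against 851 to 1077 CPM in CD8 T cells (log2 fold change -3.62 ± 0.32 (SE), adjusted p = 3.63e-05, edgeR). Lef1, a factor of naive T cells, had 63.6 to 90.5 CPM, against 473 to 616 CPM in CD8 T cells. S1pr1, which lets cells leave tissues, fell by 2.32 ± 0.28 log2 (adjusted p = 1.98e-04, edgeR).

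Genes of T cell receptor signalling were unevenly shifted. Of 13, 12 were tested against CD8 T cells, 8 were lower and 1, Zap70, higher. Lck had 136 and 295 CPM in the tamoxifen mice and 188 and 90.9 CPM in the placebo mice in gamma delta T cells, against 505 to 578 CPM in CD8 T cells (log2 fold change -1.86 ± 0.24 (SE), adjusted p = 3.91e-04, edgeR), and the costimulatory receptors Cd28 (-1.61 ± 0.25 log2, adjusted p = 0.00102) and Cd5 (-2.14 ± 0.31 log2, adjusted p = 6.87e-04) were lower as well. Zap70, the kinase downstream of Lck, had 429.8 and 217 CPM in the tamoxifen mice and 296 and 191 CPM in the placebo mice, against 104 to 116 CPM in CD8 T cells (log2 fold change 1.12 ± 0.23 (SE), adjusted p = 0.00616, edgeR). The same 8 genes were lower and Zap70 was higher against CD4 T cells, where Zap70 was not called with equal numbers of cells, at 1.09 log2, or without the first tamoxifen mouse or the first placebo mouse, at 0.73 and 1.00 log2. Without the cells that had an alpha or beta constant UMI, Zap70 was not called against CD8 or CD4 T cells, at 0.68 and 0.47 log2, nor Cd28 against CD8 T cells, at -1.16 log2.

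Cytotoxic genes separated gamma delta T cells from natural killer cells. Of 21 type 1 and cytotoxic genes, 17 were tested there, 16 were lower and 1, the chemokine receptor gene Cxcr3, was higher. Genes such as Gzma, which encodes granzyme A, passed the count filter largely through the natural killer cells, so this count is a description. Gzma had 98.02 and 0 CPM in the tamoxifen mice and 0 and 0 CPM in the placebo mice in gamma delta T cells. Natural killer cells had 5074 to 7508 CPM (log2 fold change -7.97 ± 0.66 (SE)). The 13 Gzma UMIs of gamma delta T cells lay in 2 cells of the first tamoxifen mouse. Klre1, a natural killer receptor gene, had no UMI in gamma delta T cells and was at least 55.7-fold lower. Among cytokine genes, Tnf had 62.8 to 113 CPM in gamma delta T cells, against 8.01 to 26.95 CPM in CD8 T cells (log2 fold change 2.19 ± 0.39 (SE)). Tnf passed the count filter only through the gamma delta T cells. Ltb, which encodes lymphotoxin β, was higher than in CD8 T cells by 0.65 ± 0.15 log2 (adjusted p = 0.0103, edgeR). That call was lost without the cells that had an alpha or beta constant UMI, at 0.56 log2. Il22 had no UMI in any of these cells.

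**Figure D3:**
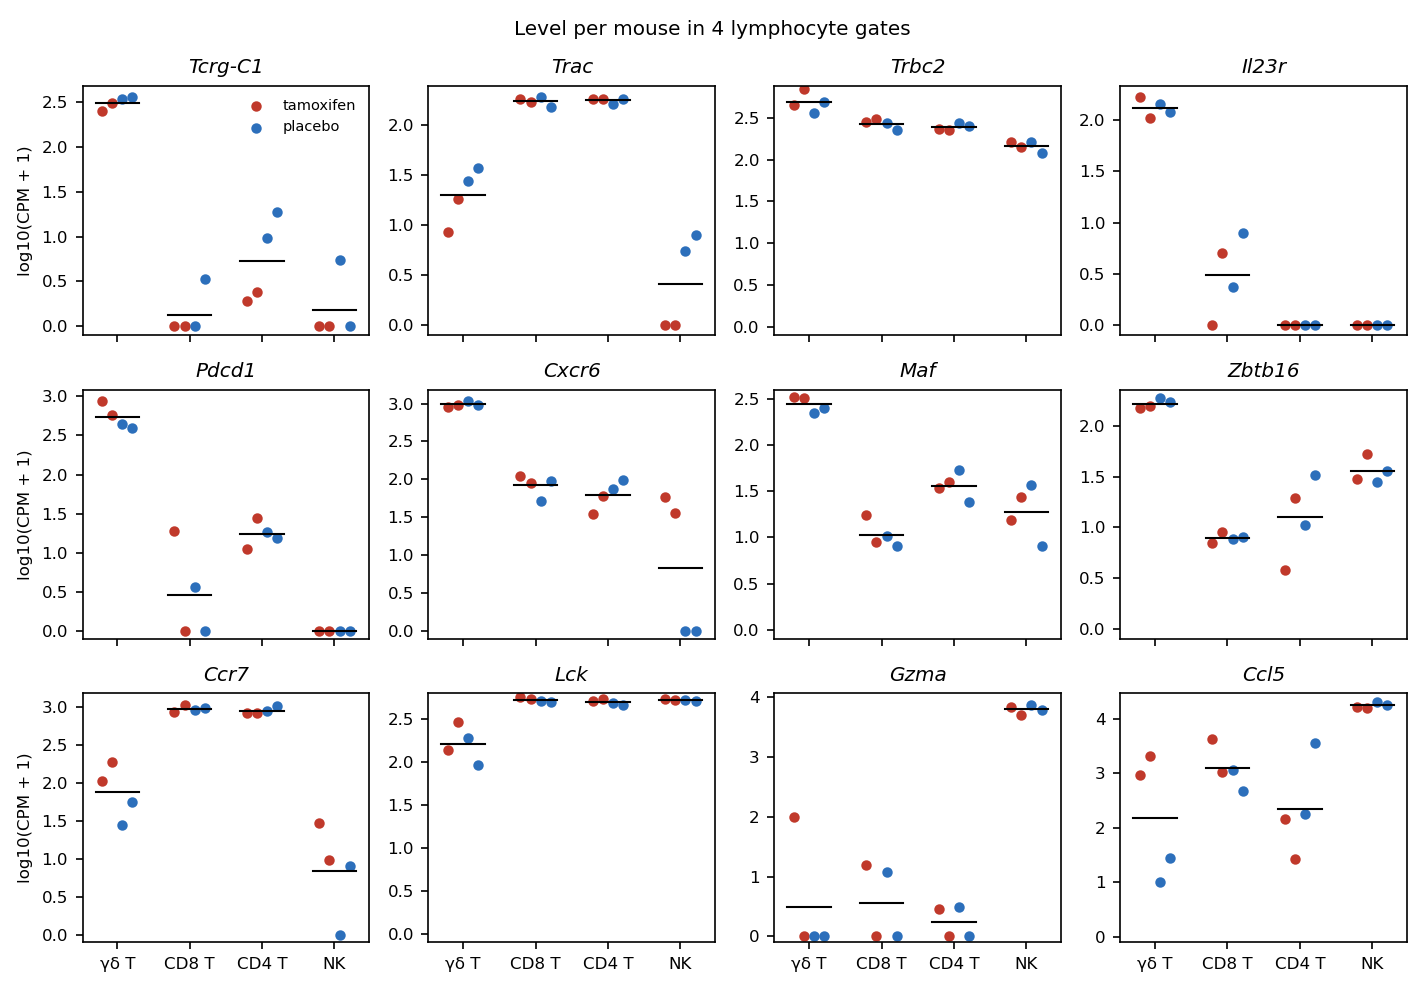
Level per mouse, as log10(CPM + 1), of 12 genes in gamma delta T cells, CD8 T cells, CD4 T cells and natural killer cells (NK), with tamoxifen mice left of placebo mice and a bar at the mean over the 4 mice. Il23r, Pdcd1, Cxcr6, Maf and Zbtb16 lie above all other gates in every mouse, Trac and Ccr7 lie below both other T cell gates, and Ccl5 in gamma delta T cells spreads with treatment.

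Red-cell genes moved with these comparisons. Alas2, an enzyme of haem synthesis in red-cell precursors, was among the genes lower in gamma delta T cells against all 3 gates, with no UMI there. Haemoglobin genes took 0.0141% of the UMIs of gamma delta T cells, against 1.25% in CD8 T cells, 1.09% in CD4 T cells and 2.24% in natural killer cells, with a median of 0 haemoglobin UMIs per cell in each. Cells with 20 or more haemoglobin UMIs numbered 1 of 97 in gamma delta T cells, 31 of 720 in CD8 T cells, 40 of 878 in CD4 T cells and 13 of 190 in natural killer cells. Their part in the calls was not tested. Without cells rich in RNA of another cell type, left out as above in all 4 kinds of cell, 841 genes (22.5%) differed from CD8 T cells, 864 (22.6%) from CD4 T cells and 620 (35.3%) from natural killer cells.

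Tamoxifen was first compared with placebo by the number of cells. Gamma delta T cells were 0.480% and 0.328% of kept cells in the tamoxifen mice and 0.305% and 0.264% in the placebo mice, 0.404 ± 0.107% against 0.285 ± 0.0296% (SD, n = 2 each). The groups did not overlap, and the two-sided exact permutation p was 0.33, the smallest that 2 against 2 mice can give. Each share rests on 17 to 33 cells, and its 95% exact interval in the second tamoxifen mouse, 0.211 to 0.488%, covers both placebo shares. With every cell thinned to 1000 UMIs and gated again, the shares were 0.247% and 0.187% against 0.0729% and 0.146%. Among cells with 2 or more Cd3 UMIs, gamma delta T cells were 2.60% and 2.61% in the tamoxifen mice and 1.81% and 2.50% in the placebo mice.

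Type 17 cells were 63.6% and 54.2% of gamma delta T cells in the tamoxifen mice (21 of 33 and 13 of 24) and 78.3% and 88.2% in the placebo mice (18 of 23 and 15 of 17). The means were 58.9 ± 6.70% and 83.2 ± 7.05% (SD, n = 2 each), without overlap, at an exact permutation p of 0.33. With each gamma delta T cell thinned to 1000 UMIs, and 2 shallower cells left out, the shares were 53.1% and 41.7% against 50% and 47.1%, which overlap (exact permutation p = 1). The difference in means was -24.3 percentage points with all UMIs and -1.13 after thinning. Thinning took the mean from 58.9 to 47.4% in tamoxifen mice and from 83.2 to 48.5% in placebo mice, as cells with few type 17 UMIs fell below 2. Median depth before thinning was 3878 and 3997 UMIs in the tamoxifen mice and 3447 and 4952 in the placebo mice. Why the difference shrank was not tested, and the thinned shares do not show that the groups are alike. Cells led by Tcrg-V6 were 14 of 33 and 9 of 24 in the tamoxifen mice and 9 of 23 and 11 of 17 in the placebo mice.

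**Figure D4:**
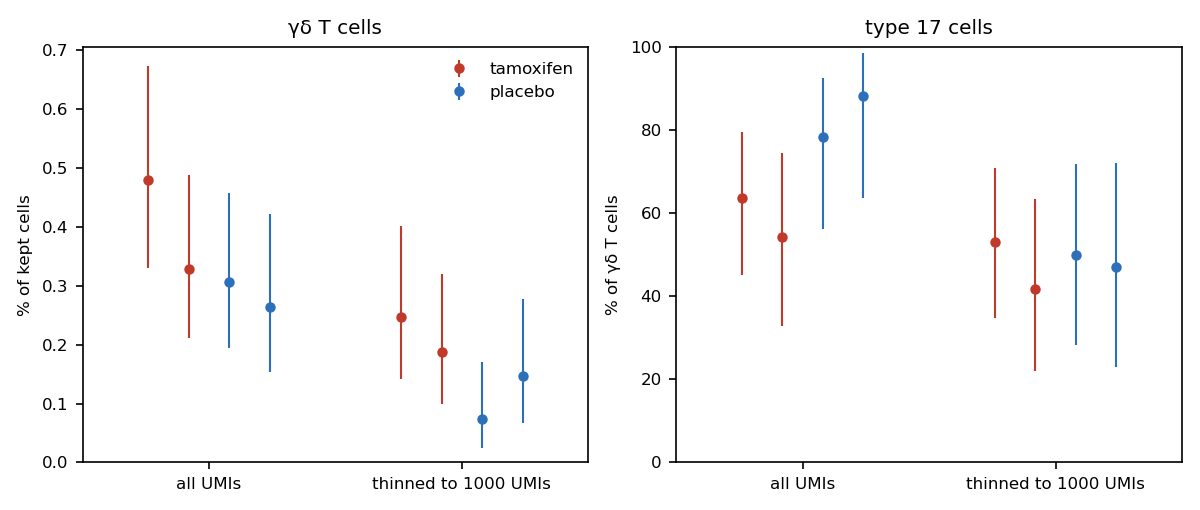
Share of gamma delta T cells among kept cells (left panel) and of type 17 cells among gamma delta T cells (right panel) in each mouse, from all UMIs and after thinning each cell to 1000 UMIs, with tamoxifen mice left of placebo mice and bars for the 95% exact binomial interval. The type 17 shares of 63.6% and 54.2% against 78.3% and 88.2% come together at 53.1% and 41.7% against 50% and 47.1% after thinning.

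Gene expression was then compared between treatments on the UMIs summed over the gamma delta T cells of each mouse. Of 1921 genes tested with edgeR, 2 (0.104%) were higher and 13 (0.677%) lower in tamoxifen mice, 15 (0.781%) in all, and 149 had an unadjusted p under 0.05. The 2 higher genes were Ccl5 and Lyz2, and the 13 lower ones were Ramp2, Plvap, Cldn5, Thbd, Cav1, Igfbp6, Gpc3, Id3, Pltp, Timp2, Pcolce, Ifitm3 and Serping1. Ccl5 and Lyz2 passed the count filter only through the tamoxifen mice. The lower genes other than Ifitm3 and Serping1 passed it only through the placebo mice. This fixed their directions, so these calls are descriptions. Ramp2, Plvap, Cldn5, Thbd and Cav1 are known from endothelial cells, Igfbp6, Gpc3, Pcolce and Serping1 are known from fibroblasts and mesothelium, and Lyz2 is a lysozyme gene of macrophages and neutrophils.

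Ccl5, a chemokine gene of activated and cytotoxic lymphocytes, had 912 and 2031 CPM in the tamoxifen mice and 8.97 and 27.3 CPM in the placebo mice (log2 fold change 6.27 ± 0.65 (SE)). The groups did not overlap. Its 121 and 234 UMIs in the tamoxifen mice lay in 3 and 6 cells, with 99 and 85 in the richest, and the 1 and 3 UMIs in the placebo mice in 1 cell each. Of the 11 cells, 10 were outside the type 17 subset and 8 were led by Tcrg-V1, Trgv2 or Tcrg-V3, and none by Tcrg-V6. Cells outside the type 17 subset numbered 12 and 11 in the tamoxifen mice and 5 and 2 in the placebo mice. Cells led by Tcrg-V1, Trgv2 or Tcrg-V3 numbered 10 and 11 against 5 and 4. Whether Ccl5 differed within such cells was not tested. Ccl5 passed the count filter only through the tamoxifen mice, which fixed its direction, so its values are a description. Ccl5 stood at 5.56 to 9.22 log2 in the 12 alternatives in which it was tested, all of them fits on the same cells or a part of them. In a draw of 17 cells per mouse it had 8 and 121 UMIs in tamoxifen mice against 0 and 3 in placebo mice and did not pass the count filter. In CD8 T cells of the same mice Ccl5 had 4182 and 1051 CPM in the tamoxifen mice and 1158 and 474 CPM in the placebo mice, which overlap.

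Nkg7, a gene of cytotoxic granules, had 249 and 459.9 CPM in the tamoxifen mice and 80.7 and 27.3 CPM in the placebo mice without overlap but was not called (log2 fold change 2.68 ± 0.53 (SE), adjusted p = 0.11, edgeR). It was called with DESeq2, without a count filter and with Trdc at 2 or more UMIs. It was not called with the replicate number as a block, with DESeq2 size factors in edgeR, with 17 cells per mouse or without doublets. Nor was it called without cells rich in RNA of another cell type or without cells that had an alpha or beta constant UMI. Nkg7 passed the count filter only through the tamoxifen mice, which fixed its direction. A UMI of Nkg7 was in 9 of the 11 Ccl5 cells. Trdv5, a delta variable segment, was next, with 20 and 15 UMIs in the tamoxifen mice and 0 and 2 in the placebo mice. This ratio of 15.6 times (95% counting interval 4.02 to 134) was not called (adjusted p = 0.13, edgeR). The richest cell of each tamoxifen mouse held 12 and 13 of these UMIs, and the interval covers neither the spread between cells nor that between mice. Cd74, which encodes a chaperone of antigen-presenting molecules, had 332 and 27 UMIs in the tamoxifen mice and 2 and 0 in the placebo mice, 330 of them in 1 cell (adjusted p = 0.141, edgeR). Of its 361 UMIs, 358 lay in cells rich in RNA of another cell type, described next.

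Lyz2 and the 13 lower genes moved with RNA of other cell types in a few cells. Marker genes of endothelium, 10 in number with Car4 at 0, summed to 75.4 and 86.8 CPM in the tamoxifen mice and 1785 and 1618 CPM in the placebo mice, and 1 cell of each placebo mouse held 178 and 167 of those UMIs. The 10 fibroblast genes summed to 460.0 and 1718 CPM in the tamoxifen mice and 1336 and 3582 CPM in the placebo mice, and the 10 macrophage and monocyte genes, with C1qb at 0, to 1297 and 1093 CPM against 126 and 45.5 CPM. In all, 10 of the 97 cells, 4 and 2 in the tamoxifen mice and 2 and 2 in the placebo mice, had 20 or more UMIs of one such list. Another list, of epithelium, stood out in 1 cell of the second tamoxifen mouse with 1696 UMIs. The 10 cells held 88.1 to 100% of the UMIs of the 13 lower genes and all 190 of Lyz2. Since Ramp2, Plvap and Cldn5 are on the endothelium list and Lyz2 on the macrophage list, their UMIs helped to pick the 10 cells, and their loss without these cells follows from the choice.

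Without these 10 cells, in an alternative chosen after seeing the data, 1 of 1433 genes tested (0.0698%) was called, and 54 had an unadjusted p under 0.05. The called gene was Ccl5, at 5.93 ± 0.63 (SE) log2, which again passed the count filter only through the tamoxifen mice. None of the other 14 genes passed the count filter there. Ramp2, with 0 UMIs in the tamoxifen mice and 58 and 67 in the placebo mice over all cells, had 0 in the tamoxifen mice and 0 and 1 in the placebo mice without the 10 cells. Leaving out the first or second tamoxifen mouse gave 81 and 91 calls and the first or second placebo mouse 87 and 94, where the lone mouse is assumed to vary like the other group.

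**Figure D5:**
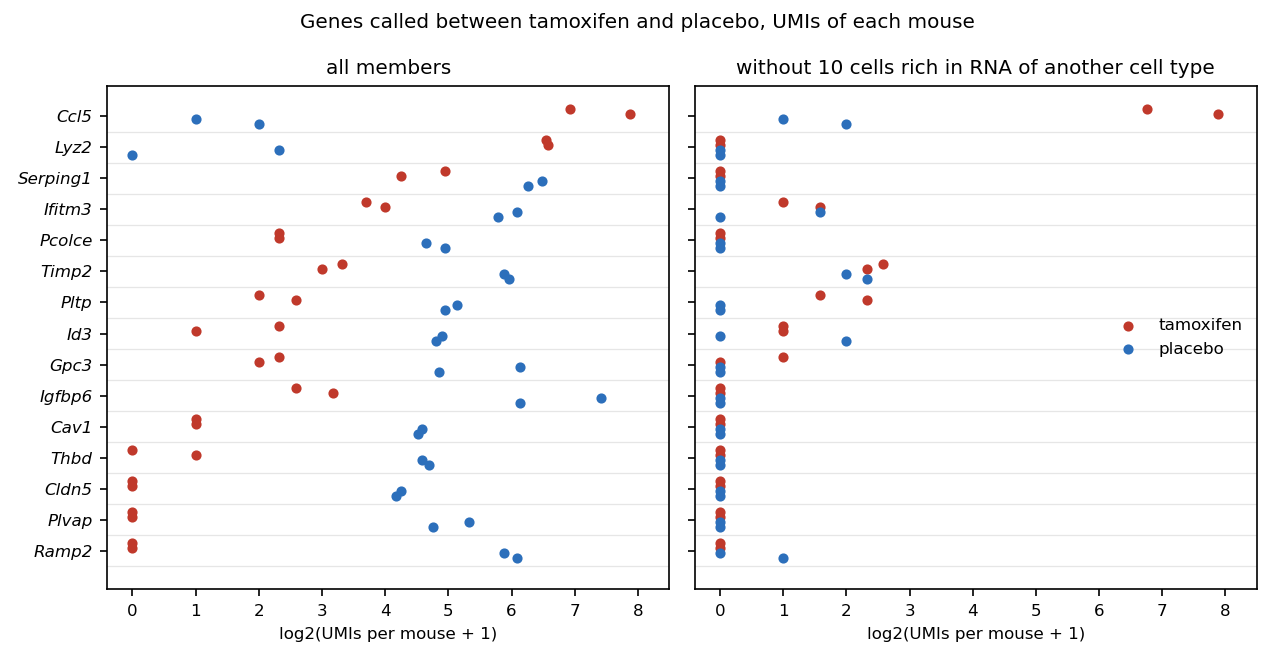
UMIs per mouse, as log2(UMIs + 1), of the 15 genes called between tamoxifen and placebo mice in gamma delta T cells, over all members (left panel) and without 10 cells that hold 20 or more UMIs of another cell type's marker list (right panel). Ccl5 keeps 107 and 234 UMIs in the tamoxifen mice against 1 and 3 in the placebo mice, while Lyz2 and the lower genes fall to 0 to 5 UMIs in every mouse.

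Of the 10 type 17 genes, 6 were tested and none was called, and none of the 19 further type 17 genes tested was called, with medians of 0.17 and -0.13 log2 beside 0.03 over all genes. Cd163l1 had 1229 and 850.4 CPM in the tamoxifen mice and 735 and 846 CPM in the placebo mice, without overlap, and Il23r 166 and 104 CPM in the tamoxifen mice and 143 and 118 CPM in the placebo mice, with overlap. Pdcd1 had 867 and 573 CPM in the tamoxifen mice and 439 and 391 CPM in the placebo mice without overlap and was not called (log2 fold change 0.79 ± 0.27 (SE), adjusted p = 0.482, edgeR). None of 3 tested gamma constant genes, 9 signalling genes, 5 naive genes, 8 immediate early genes, 10 heat shock genes or 7 MHC class I genes was called. Of 8 innate-like factors tested Id3 was the only call, and of 7 type 1 and cytotoxic genes Ccl5. A p above the threshold in 2 against 2 mice and 17 to 33 cells each does not show that the levels are alike.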

How the data were processed

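The authors deposited 1 matrix per library, with unnormalised UMI counts of 32285 genes in each barcode. Per the file headers the matrices come from Cell Ranger 5.0.0, while version 8.0.1 and the mm10 build stand in the submitters' processing notes, and which made the matrices is not settled. Gene names and barcodes were read from the deposited lists. The members, gene lists and tests were chosen with earlier results of these data known. UMI counts were summed per mouse and group of cells and tested with edgeR 4.0.16 (R 4.3.3; TMM, filterByExpr, quasi-likelihood F test, Benjamini-Hochberg at 0.05), checked on simulated counts. The SE was derived from the F statistic. Named genes were the called ones with the largest changes, at 20 CPM or more in the higher group and the same direction in all mice (between treatments, all called up to 12 each way and the 5 smallest p), plus list members, of which 1 is not reported here. Doublets stayed in; Scrublet in scanpy 1.11.5 scored 1 member over 0.25. Alternatives were DESeq2 1.42.0, other filters, gates, cell numbers, blocks and left-out mice. Segment sequences came from GENCODE M21. With 2 mice a group, p-values rest on the spread of 2 animals.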

Additional observations from a re-analysis of the deposited data

How the results depend on the processing

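Counts of called genes depended on the settings more than their directions did. Between treatments, 15 genes were called, against 24 with DESeq2, 194 without a count filter, 8 with 17 cells per mouse, 9 without doublets, 1 without cells that had an alpha or beta constant UMI, 1 without the 10 cells rich in RNA of another cell type and 81 to 94 with 1 mouse left out. With the replicate number as a block 2 genes were called, Ccl5 and Cd74, of which Cd74 has 99.2% of its UMIs in the cells rich in other RNA. Deviations of same-numbered mice had a correlation of 0.0111 over 1921 genes. On sums of 17 to 33 cells per mouse this cannot decide whether the numbers pair the mice. Against CD8 T cells 731 genes were called, 1112 without a filter, 376 with equal numbers of cells, 269 without cells that had an alpha or beta constant UMI and 561 to 637 with 1 mouse left out. Against CD4 T cells the counts were 692, 1044, 306, 255 and 428 to 600, the lowest without the first placebo mouse. Against natural killer cells they were 497, 975 without a filter, 102 without alpha or beta constant UMIs and 377 to 450. Between type 17 and other cells 27 were called, 17 with DESeq2, 97 without a filter, 51 without the cells rich in other RNA and 11 to 37 with 1 mouse left out. Trbc2 reversed to -9.69 log2 against CD8 and -9.71 against CD4 T cells when cells with its UMIs were removed, which the alternative itself brings about. Without the cells rich in other RNA, Cst3 was no longer called between the subsets. The log2 ratio of mean shares, tamoxifen over placebo, stayed between 0.207 and 1.06 for gamma delta T cells under all alternatives run. For type 17 cells it stayed between -0.620 and -0.0341. Precision is low for cytokine genes, with 22 UMIs of Il17a in 97 cells.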

Other observations

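A few gamma delta T cells carried RNA of cell division. The 12 proliferation genes reached 5 or more UMIs in 5 of 97 cells, 0 and 2 in the tamoxifen mice and 3 and 0 in the placebo mice, 4 of them type 17 cells, with up to 96 UMIs in 1 cell. Mki67, a marker of dividing cells, was found in 3 cells, 0 and 1 in the tamoxifen mice and 2 and 0 in the placebo mice.

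Ramp1 and Ramp3, which encode partners of the receptors for calcitonin gene-related peptide and adrenomedullin, were found in 78 and 39 of the 97 cells, and Ccr2, a chemokine receptor gene, in 62. Of these cells, 62, 34 and 52 were type 17 cells. Csf2, a growth factor gene for myeloid cells, had 19 UMIs in the 97 gamma delta T cells, against 1 in 720 CD8 T cells and 7 in 878 CD4 T cells. Of 5 genes for oestrogen receptors and their targets, 4 had no UMI in the 97 cells, and Esr2 had 3 UMIs in 1 cell of the second placebo mouse. That cell also held 167 UMIs of the endothelium list and is one of the 10 rich in RNA of another cell type.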
